A study of Rattus norvegicus with 4 samples.

Results

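S phase and DNA replication genes were described in smooth muscle cells cultured from the rat aorta, which in the vessel contract to set its width. The list has 31 genes with known roles at the start and during the copying of DNA. A gene was measured where a probe set, the group of probes that reads one transcript on the array, carried its symbol and no other. This gave 37 probe sets of 28 genes, out of 31099 probe sets of 14218 genes in all. Cdc6 and Gins2 were on no probe set of the annotation used, and Rrm2 was named only on 2 probe sets shared with another gene, so these 3 genes have no values here. The cells, from Sprague-Dawley rats, grew for 3 days in serum until they covered the dish and then spent 3 days without serum. They were then treated for 24 hours with interleukin-1b (IL-1b, an inflammatory cytokine) at 2.5 ng/mL or with its vehicle, 0.1% albumin (BSA) with 10 mM acetic acid. Others received PDGF-DD, a growth factor that acts mainly through PDGF receptor beta, at 30 ng/mL, or its vehicle, 0.01% BSA. Each of the 4 groups was 1 array, so no difference below has a replicate check, a p-value or a standard deviation.

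A cell that leaves rest must first license its replication origins and then copy its DNA once. Growth factors raise D-type cyclins, whose kinases phosphorylate the retinoblastoma protein and release E2F transcription factors, and E2F in turn drives cyclin E, the licensing factors, the replication fork enzymes and the enzymes that make DNA precursors. In the artery wall smooth muscle cells rarely divide, and PDGF is among the factors known to bring them back into the cell cycle.

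The promoters of these genes are shown first, because the letters that E2F proteins are known to bind are what many of them share beyond the choice by function. Windows from 250 bases before to 50 after a transcription start were taken from RefSeq on the rat assembly GRCr8, in which 26 of the 31 genes had a window. The searched E2F-type words were TTTCGCGC, TTTGGCGC and TTTCCCGC, each on both strands, and matches on opposite strands can overlap. At least 1 of these words was in the windows of 15 of the 26 genes (57.7%), against 529 of all 27457 genes in the table (1.93%). In a further list of replication genes, described below, it was 18 of 52 (34.6%). Each stretch below is 30 bases on the gene's strand, 5′ to 3′, with the E2F-type letters in capitals; the MCM genes are shown as subunits of one complex, Cdt1 and Gins1 because they act with that complex, Tyms as a precursor enzyme, and Hells and Uhrf1 for their large ratios with PDGF-DD, a choice made after their values were seen.
Mcm2, chr4:122918086-122918115, minus strand: acccggtTTTCGCGCGAAAacccgtggcag
Mcm3, chr9:30733734-30733763, minus strand: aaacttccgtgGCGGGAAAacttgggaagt
Mcm5, chr19:13488794-13488823, plus strand: ccaggttggttTTTCCCGCgaaagtcggct
Mcm6, chr13:42404469-42404498, minus strand: gtctgctTTTGGCGCGAAAttagcgtgtgg
Mcm7, chr12:22163212-22163241, minus strand: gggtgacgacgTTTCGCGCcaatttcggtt
Cdt1, chr19:67529245-67529274, plus strand: ccgcgaaaattGCGCGAAAtccgcgggaag
Gins1, chr3:160184888-160184917, plus strand: aagcctaTTTGGCGCCAAAgagaggagctg
Tyms, chr9:120776102-120776131, minus strand: aaggtgcgggtTTTGGCGCcgactacactg
Hells, chr1:246114089-246114118, plus strand: gatgaccaggtTTTCCCGCgaaagagaagc
Uhrf1, chr9:1223076-1223105, plus strand: cccgagtcgggTTTCGCGCgccctggcgtc

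In Mcm2, Mcm6 and Gins1 the match reads on both strands, which gives 1 longer stretch of capitals. Uhrf1 has several windows and was counted for these letters, though only the window that its stretch comes from holds them. The members' windows held 60% G and C at the median and all windows 51.7%. Among the 22814 windows within the members' range of G and C, 2.19% held an E2F-type word, against 53.6% of the members' 28 windows. Those 22814 windows had a median of 55.3%, so they were not matched to the members in G and C. CCAAT, the letters of the factor NF-Y, was in 15 of the 26 genes (57.7%) and in 39.6% of all genes. TTTGAA, a CHR-type element of genes used late in the cell cycle, was in 3 of the 26 (11.5%) against 19.4% of all genes, while 17 of 23 G2/M genes (73.9%) held it and 1 of those 23 held an E2F-type word. The shorter word TTTGCGC was in 0 of the 26 and in 1.80% of all genes. A match is a description of letters and does not show that a factor binds there.

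The 250 bases before the start of Mcm5 and Mcm6 show how the E2F-type and CCAAT letters lie together, both in capitals (CCAAT on the other strand reads ATTGG).
Mcm5, chr19:13488563-13488812, plus strand: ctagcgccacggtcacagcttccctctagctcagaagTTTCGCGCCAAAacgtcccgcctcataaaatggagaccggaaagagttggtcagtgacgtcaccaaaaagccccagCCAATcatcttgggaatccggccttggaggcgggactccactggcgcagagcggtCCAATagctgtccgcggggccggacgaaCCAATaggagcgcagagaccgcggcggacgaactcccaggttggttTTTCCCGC
Mcm6, chr13:42404353-42404602, minus strand: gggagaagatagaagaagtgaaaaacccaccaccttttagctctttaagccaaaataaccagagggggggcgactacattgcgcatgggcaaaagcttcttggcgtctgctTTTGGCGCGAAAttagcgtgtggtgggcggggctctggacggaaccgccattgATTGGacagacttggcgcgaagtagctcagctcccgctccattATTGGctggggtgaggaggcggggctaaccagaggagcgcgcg

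**Figure D1:**
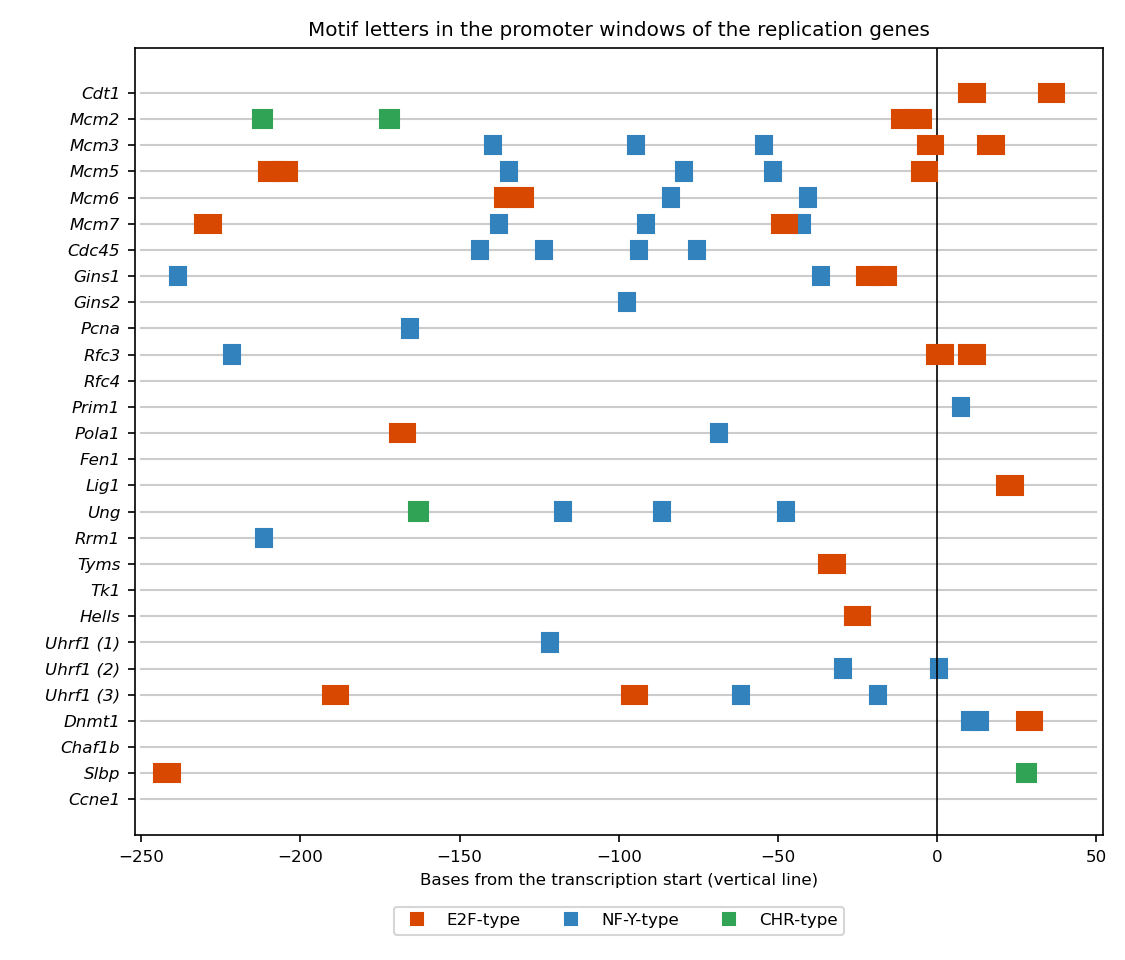
Positions of E2F-type, CCAAT (NF-Y-type) and TTTGAA (CHR-type) letters in the 28 promoter windows of the replication genes; the horizontal axis gives bases from the transcription start (vertical line) and each grey line is 1 window, with Uhrf1 having 3. E2F-type letters are in the windows of 15 of 26 genes, and Rfc4, Fen1, Tk1, Chaf1b and Ccne1 hold none of the exact words searched.

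Between 58.3% and 61.5% of probe sets lay above the floor, an intensity of 28.1 below which values have no order, and the 28 genes were above it on all 4 arrays. Of 8 smooth muscle markers, 7 were above the floor on every array, though Myh11 only narrowly with PDGF-DD (29.5). Des was above it only with the IL-1b vehicle (42.6). The summed intensity of the 8 was 34626 with the IL-1b vehicle, 11895 with IL-1b, 27726 with the PDGF-DD vehicle and 7906 with PDGF-DD. The leukocyte markers Ptprc, Cd68, Itgam and Csf1r and the endothelial markers Pecam1, Vwf, Kdr and Emcn were at the floor on all arrays. Of the remaining markers on these lists Cd14, a receptor for bacterial lipopolysaccharide, was at 1117 to 1333 on every array, Aif1 was above the floor with IL-1b (38.2), and the endothelial receptor Tek was above it with the IL-1b vehicle (40.02) and PDGF-DD (28.8). The summed intensity ranged from 1176 to 1403 for the 6 leukocyte markers, nearly all of it Cd14, and from 27.0 to 64.3 for the 5 endothelial markers with a probe set. Of 5 mesothelial or epithelial markers 4 exceeded the floor on 1 array or more, with sums from 214 to 365. RNA integrity, read from the 3′/5′ ratio of beta-actin, stood at 1.58 and 2.05 on the vehicle and IL-1b arrays of that pair and at 1.26 and 1.37 on the vehicle and PDGF-DD arrays of the other. Spiked BioB, BioD and Cre controls had PDGF-DD over PDGF-DD vehicle ratios between 0.688 and 0.814. The spiked BioC control stood apart from these: comparing the vehicles, its probe sets were 2.47-fold to 3.13-fold brighter for IL-1b than for PDGF-DD, and its PDGF-DD over vehicle ratios ran from 0.708 to 0.936. These measures differ between the arrays compared below, and their part in the results was not tested, apart from a scaling to the spiked controls other than BioC in the closing section.

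With PDGF-DD every measured replication gene had a higher intensity than with its vehicle. The log2 ratio was above 0 in 28 of 28 genes, with a median of 1.08 and quartiles of 1.01 and 1.29, and 21 of the 28 passed 2-fold upwards and 0 downwards. Over all genes measured in that comparison 4.2% were higher and 4.67% lower by at least 2-fold, the median was 0.01 and the quartiles were -0.30 and 0.33. In all 28 genes the PDGF-DD array was the highest of the 4, and in 25 the PDGF-DD vehicle array was the second. The exceptions were E2f1, Slbp and Ung. Intensities cannot tell apart more cells in S phase and more of these transcripts in each cell.

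**Figure D2:**
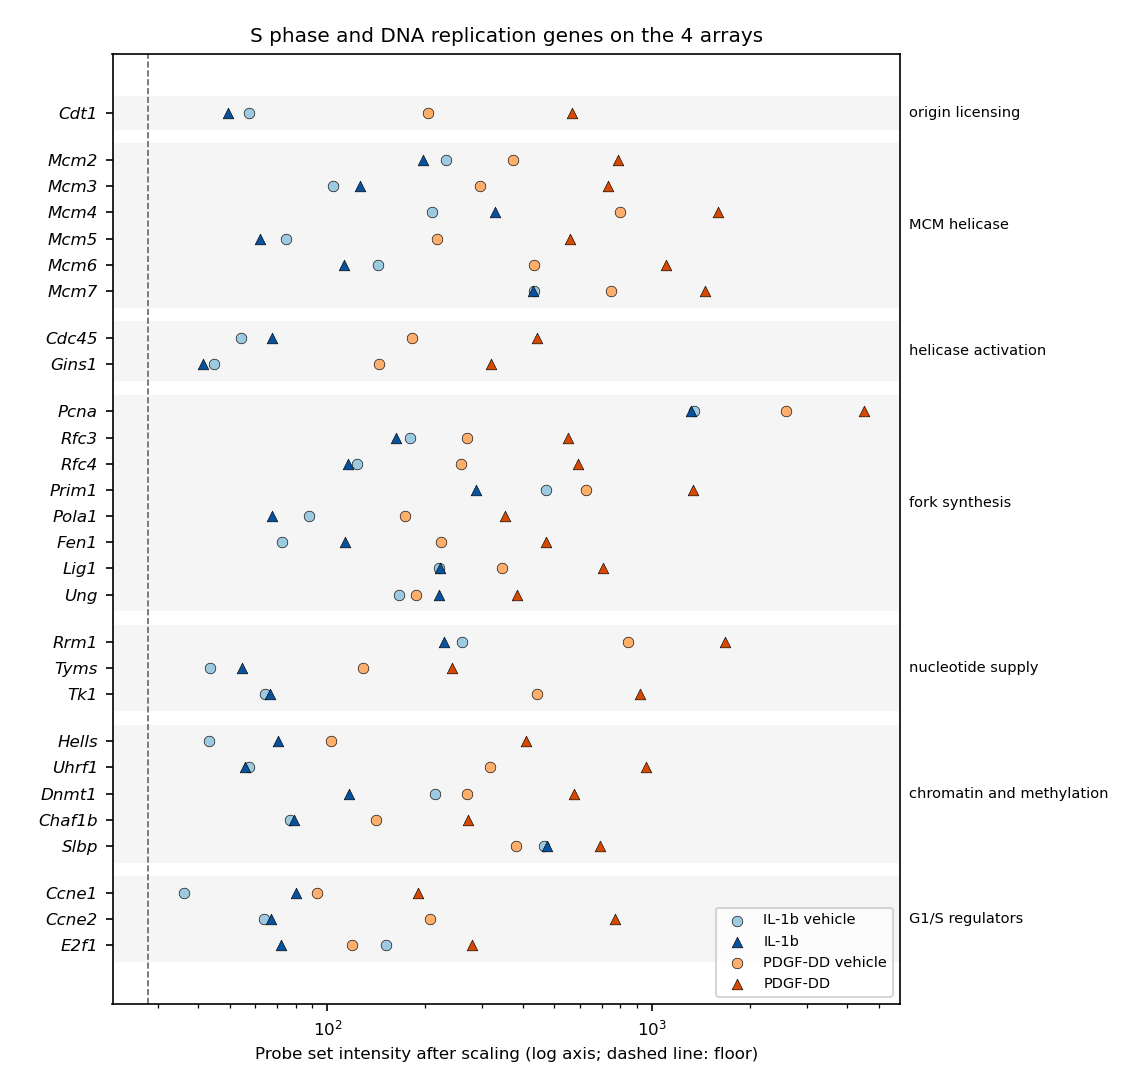
Scaled probe set intensity (horizontal log axis) of the 28 genes on the 4 arrays, grouped by role; each symbol is 1 array and the dashed line is the floor of 28.1. The PDGF-DD triangle is the rightmost symbol in all 28 rows, and both IL-1b pair symbols lie left of the PDGF-DD vehicle in 25.

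Cdt1 loads the MCM helicase onto origins, and it was the measured member of origin licensing. Its intensity was 57.5 with the IL-1b vehicle, 49.5 with IL-1b, 205 with the PDGF-DD vehicle and 568 with PDGF-DD. It was thus low in both IL-1b cultures, higher with the PDGF-DD vehicle and highest with PDGF-DD, 2.78-fold above that vehicle.

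The MCM proteins form the ring-shaped helicase that unwinds DNA at the fork, and the 6 genes had PDGF-DD log2 ratios between 0.96 and 1.36, with 4 at least 2-fold. With the arrays in the order used for Cdt1, Mcm2 had intensities of 233, 197, 373 and 787. Mcm3 had 104, 126, 295 and 733 in the same order, and Mcm4 had 210.1, 328, 799 and 1592. In all 3 both arrays of the IL-1b pair were below the PDGF-DD pair, while IL-1b was below its vehicle in Mcm2 and above it in Mcm3 and Mcm4. Mcm5 had 74.6, 61.9, 217 and 559.9. Mcm6, read by a probe set that Affymetrix marks as covering several transcripts of the gene, had 143, 113, 433 and 1106. Mcm7 had 433, 429, 750.1 and 1455. With PDGF-DD the fold over its vehicle was 2.57 for Mcm5, 2.56 for Mcm6, 2.49 for Mcm3, 2.11 for Mcm2, 1.99 for Mcm4 and 1.94 for Mcm7. The subunits differed more between the vehicle arrays, from 1.60-fold higher with the PDGF-DD vehicle in Mcm2 and 1.73-fold in Mcm7 to 3.8-fold in Mcm4.

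Cdc45 and the GINS complex join the MCM ring to make the active helicase. Cdc45 had intensities of 54.1, 67.7, 182 and 442 in the order used above, by a probe set marked as open to cross-hybridisation. Gins1 had 44.8, 41.3, 144 and 319. Both were at least 2-fold higher with PDGF-DD than with its vehicle, 2.43-fold and 2.21-fold, and above 3-fold between the vehicles, 3.36-fold and 3.22-fold.

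Among the genes grouped here under fork synthesis, Ung included, 7 of 8 were at least 2-fold higher with PDGF-DD than with its vehicle. Pcna, the sliding clamp that holds polymerases on DNA, had intensities of 1346, 1316, 2585 and 4507 in the same order of arrays. It was the one below 2-fold, at 1.74-fold, and the lowest PDGF-DD ratio of the 28 genes. The clamp loader subunit Rfc3 had 180.3, 163, 270.1 and 551, and its partner Rfc4 had 123, 116, 258 and 592. Prim1, the primase that starts each strand with RNA, had 473, 288, 626 and 1338. Pola1, the catalytic subunit of polymerase alpha, had 87.7, 67.4, 173 and 352. Prim1 was 1.64-fold lower and Pola1 1.3-fold lower with IL-1b than with its vehicle. Fen1, which removes the flaps of Okazaki fragments, had 72.3, 113, 224 and 473, and Lig1, the ligase that seals them, had 220.5, 222, 345 and 706. Ung, which cuts uracil out of DNA, had 167, 221, 188 and 383. In this group the PDGF-DD folds other than that of Pcna lay within a narrow span, from 2.03 for Pola1 to 2.30 for Rfc4. Between the vehicles they spread from 1.13-fold for Ung to 3.09-fold for Fen1.

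DNA precursors are made by ribonucleotide reductase, thymidylate synthase and thymidine kinase. Rrm1, the large subunit of the reductase, had intensities of 260.0, 229, 845 and 1684 in the order used above. Tyms had 43.4, 54.6, 128 and 243, and Tk1 had 64.2, 66.5, 442 and 916. All 3 were at least 2-fold higher with the PDGF-DD vehicle than with the IL-1b vehicle, by 3.25-fold, 2.96-fold and 6.89-fold. By the probe set that stands for each gene, Tk1 showed the largest vehicle difference of the 28 genes. Another Tk1 probe set, above the floor on all arrays, gave 2.65-fold, so this rank depends on the probe set. With PDGF-DD against its vehicle they were 1.99-fold, 1.89-fold and 2.07-fold higher, so only Tk1 passed 2-fold.

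Genes that copy chromatin and DNA methylation behind the fork held both large and small ratios. Hells, a chromatin remodeller needed for DNA methylation, had intensities of 43.2, 70.2, 103 and 410.4, and at 4.0-fold it had the largest PDGF-DD ratio of the 28 genes. Uhrf1, which brings the maintenance methyltransferase to newly copied DNA, had 57.3, 55.7, 318 and 961. It was 3.03-fold higher with PDGF-DD and 5.54-fold higher between the vehicles, so the PDGF-DD array stood 16.8-fold above the IL-1b vehicle array and 17.3-fold above the IL-1b array, the largest of the 28 in either comparison. Dnmt1, the maintenance methyltransferase itself, had 215, 117, 269.8 and 575. It was 2.13-fold higher with PDGF-DD than with its vehicle and 1.84-fold lower with IL-1b than with its vehicle. Chaf1b, a subunit of the chromatin assembly factor, had 76.6, 78.9, 141 and 271. Slbp, which binds the stem-loop of histone mRNAs, had 464, 475, 381 and 689, so its PDGF-DD vehicle array was the lowest of the 4. It was 1.81-fold higher with PDGF-DD, and its probe set is marked as shared between transcripts.

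Cyclin E activates CDK2 at the entry into S phase. Ccne1 had intensities of 36.1, 80.1, 92.9 and 189.8 in the same order, with the IL-1b vehicle array close to the floor. Ccne2 had 63.7, 66.9, 208 and 769. E2f1, a transcription factor that activates these genes and is a target of E2F itself, had 151, 72.0, 119 and 279. With PDGF-DD the 3 genes were 2.04-fold, 3.70-fold and 2.35-fold higher than with the vehicle. E2f1 and Slbp were the only ones of the 28 genes that were lower with the PDGF-DD vehicle than with the IL-1b vehicle, by log2 ratios of -0.35 and -0.28.

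**Figure D3:**
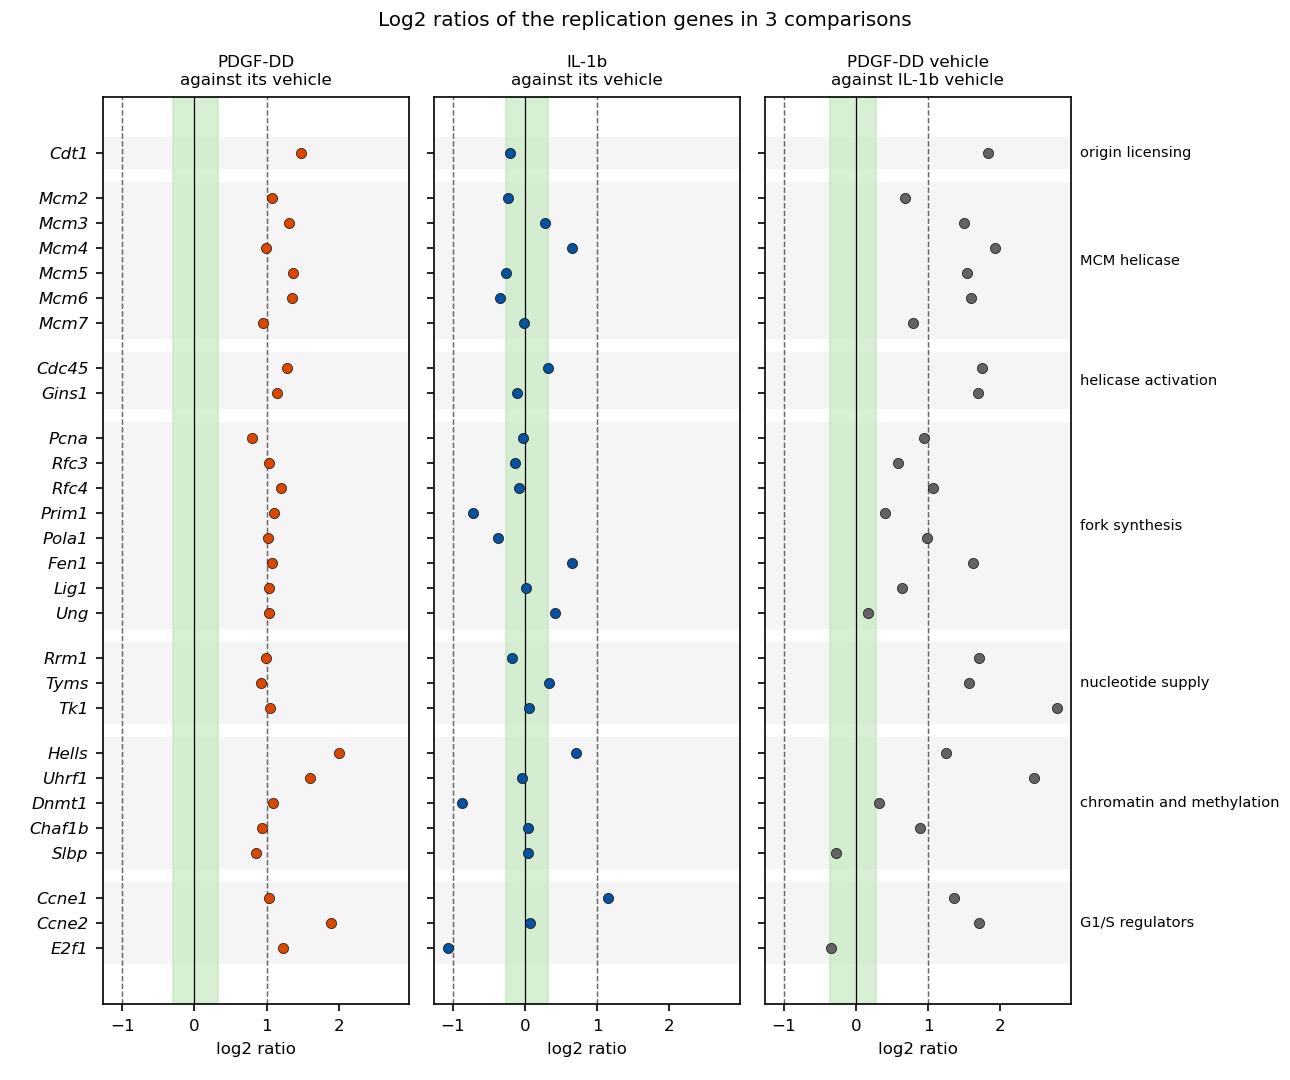
Log2 ratios of the 28 genes with PDGF-DD against its vehicle, with IL-1b against its vehicle and between the vehicles; each point is 1 gene, dashed lines mark 2-fold and the green band holds the middle of all genes, between their quartiles. The PDGF-DD points lie between 0.80 and 2.0, the IL-1b points on both sides of 0 and the vehicle points between -0.35 and 2.79.

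The PDGF-DD ratios of the members were close to one another. Their interquartile range was 0.27 on the log2 scale, against 0.63 over all genes in that comparison and 1.02 for the same 28 genes between the vehicles. For the further replication genes described below it was 0.45 with PDGF-DD and 0.94 between the vehicles, and for the G2/M genes 0.40 and 0.69. Many PDGF-DD ratios of the members therefore lay beside the 2-fold limit. Just inside it were Pola1 (2.03-fold), Rfc3 and Ung (2.04-fold), and just outside Mcm4 and Rrm1 (both 1.99-fold) and Mcm7 (1.94-fold). The count of 21 became 26 with the values as deposited, where 5.18% of all genes were higher by as much. With a pseudocount of 32 in place of the floor it became 13, where 1.98% of all genes were. The members' median stayed between 0.99 and 1.5 over 8 alternative settings.

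With IL-1b the replication genes as a list did not move one way. Against its vehicle the median log2 ratio was -0.02, with quartiles of -0.22 and 0.29, 13 genes above 0 and 15 below. Ccne1 was 2.22-fold higher, the only member of 28 to pass 2-fold upwards, where 6.12% of all genes did. E2f1 was 2.10-fold lower, the only one downwards, where 5.39% of all genes did. With a pseudocount of 32 in place of the floor neither passed 2-fold, with log2 ratios of 0.72 for Ccne1 and -0.82 for E2f1. With the floor at the 60th percentile Ccne1 was not measured and E2f1 had -0.53, with its IL-1b array at that floor. Below 2-fold, Hells, Fen1 and Mcm4 were 1.63-fold, 1.57-fold and 1.56-fold higher, and Dnmt1 and Prim1 were 1.84-fold and 1.64-fold lower. Cyclin D1 (Ccnd1), which acts upstream of E2F, had intensities of 201 with the IL-1b vehicle, 2117 with IL-1b, 1173 with the PDGF-DD vehicle and 4102 with PDGF-DD. Its log2 ratio with IL-1b against the vehicle was 3.40.

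The vehicle arrays, from cells that received no factor, also differed in the members. With the PDGF-DD vehicle 16 of 28 genes passed 2-fold upwards against the IL-1b vehicle and 0 downwards, where 5.79% of all genes were higher and 4.62% lower by as much; the median log2 ratio was 1.31, with quartiles of 0.67 and 1.69. With the floor set at the 60th percentile of all values this count was 9 of 26, where 4.31% of all genes were higher. By role, 2 of 2 helicase activation genes, 3 of 3 precursor genes and 4 of 6 MCM genes passed 2-fold, and 2 of 8 fork synthesis genes. The helicase activation and precursor counts rest at least in part on low intensities with the IL-1b vehicle. With the floor at the 60th percentile Cdc45 (log2 ratio 0.79), Gins1 (0.46) and Tyms (0.29) were below 2-fold. So were Cdt1 (0.96) and Ccne2 (0.98), while Tk1 (2.07) and Uhrf1 (1.60) were not. The cultures differ in vehicle composition, and this cannot be told apart from differences between cultures or arrays. The proliferation marker Mki67 had intensities of 83.6 and 64.8 with the IL-1b vehicle and IL-1b, and of 858 and 1799 with the PDGF-DD vehicle and PDGF-DD.

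Because of that difference, each factor was also set against the other vehicle, in comparisons that share arrays with those above. PDGF-DD against the IL-1b vehicle put 26 of 28 genes at least 2-fold higher (median log2 ratio 2.44), where 9.62% of all genes were higher and 10.3% lower by as much. The other two were E2f1 at 1.84-fold and Slbp at 1.49-fold. IL-1b against the PDGF-DD vehicle put 16 of 28 at least 2-fold lower and 0 higher (median -1.18), where 4.97% of all genes were lower and 5.39% higher; Slbp and Ung had log2 ratios above 0 there, 0.31 and 0.24. Set directly against IL-1b, PDGF-DD had 26 of 28 genes at least 2-fold higher, where 7.09% of all genes were higher and 8.65% lower, with a median of 2.29. Ung and Slbp fell short of it, at 0.79 and 0.54 on the log2 scale.

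Of the 28 genes, 5 had more than 1 probe set, 9 further ones in all. The other probe set of Lig1 gave intensities of 99.4, 105, 116 and 235, a PDGF-DD fold of 2.02 beside 2.05. The further probe sets of Tk1 gave 2.33-fold and 2.80-fold beside 2.07-fold with PDGF-DD. Between the vehicles they disagreed more, at 2.65-fold and at least 1.43-fold beside 6.89-fold, the bound coming from a probe set at the floor in both IL-1b cultures. Cdc45 had 2 further probe sets with PDGF-DD folds of 3.15 and 2.29 and 1 at the floor on all arrays. The other probe set of Ccne2 stayed close to the floor, at 34.9, 35, 38.2 and 36.9, and its PDGF-DD log2 ratio was -0.05 beside 1.89. Slbp had 1 further probe set at the floor on all arrays and 1 at 32.2 with IL-1b and at the floor on the rest.

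**Figure D4:**
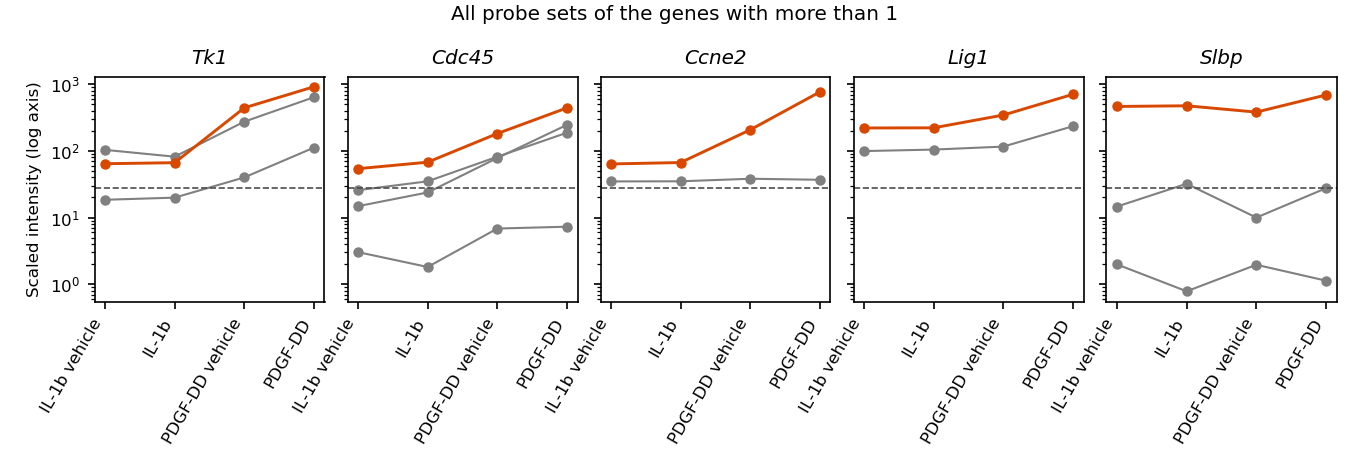
Scaled intensity (log axis) of every probe set of Tk1, Cdc45, Ccne2, Lig1 and Slbp on the 4 arrays; orange is the probe set that stands for the gene, grey the others, lines join the values of 1 probe set and the dashed line is the floor. In Tk1, Cdc45 and Lig1 the probe sets above the floor are highest with PDGF-DD, whereas the grey probe set of Ccne2 stays between 34.9 and 38.2.

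A further list of 67 genes of replication and its control, 58 with a probe set, was set beside the members. With PDGF-DD 21 of 58 passed 2-fold upwards against the vehicle and 0 downwards, where 4.2% of all genes were higher and 4.67% lower. The median log2 ratio of the list was 0.90. The largest ratios were those of Orc1, the largest subunit of the origin recognition complex, with intensities of 64.4 and 266 on the vehicle and PDGF-DD arrays, and of Gmnn (geminin), the inhibitor of Cdt1, with 228 and 779. Dscc1, a subunit of an alternative clamp loader, had 170.0 and 523, and the recombination factor Rad51ap1 had 53.0 and 151. With IL-1b against its vehicle 1 of 54 measured was at least 2-fold higher and 3 lower, shares below or near the 6.12% and 5.39% over all genes. They are named for their size alone. Dck, which phosphorylates deoxycytidine, had a log2 ratio of 1.19, and the fork protection factor Timeless, the retinoblastoma gene Rb1 and the polymerase epsilon subunit Pole had -1.40, -1.31 and -1.17. Rb1 also had a log2 ratio of -0.99 with PDGF-DD. Between the vehicles 22 of 58 passed 2-fold upwards and 0 downwards (median 0.77), where 5.79% of all genes were higher and 4.62% lower. Without Top2a, which is also on the G2/M list, it was 21 of 57 (median 0.75). The largest ratios were those of Top2a at 3.23, Ccna2 at 3.05, Asf1b at 2.61 and Gmnn at 2.0. These 4 genes also led PDGF-DD against the IL-1b vehicle, with log2 ratios from 3.68 to 4.10, and PDGF-DD against IL-1b, from 3.30 to 4.10. In IL-1b against the PDGF-DD vehicle Top2a, Ccna2, Asf1b and Pole were lowest, from -3.30 to -2.15.

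The genes of G2 and mitosis, used after replication, are given for comparison without a test. Their median log2 ratio with PDGF-DD was 0.99, beside 1.08 for the members. At least 2-fold higher were 12 of 24, beside 21 of 28 members and 4.2% of all genes. Between the vehicles their median was 2.43, beside 1.31. There 23 of 24 were higher, beside 16 of 28 members and 5.79% of all genes. With IL-1b their median was -0.37, beside -0.02. The 7 reference genes measured had medians of -0.18, 0.12 and 0.05 in the same comparisons.

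**Figure D5:**
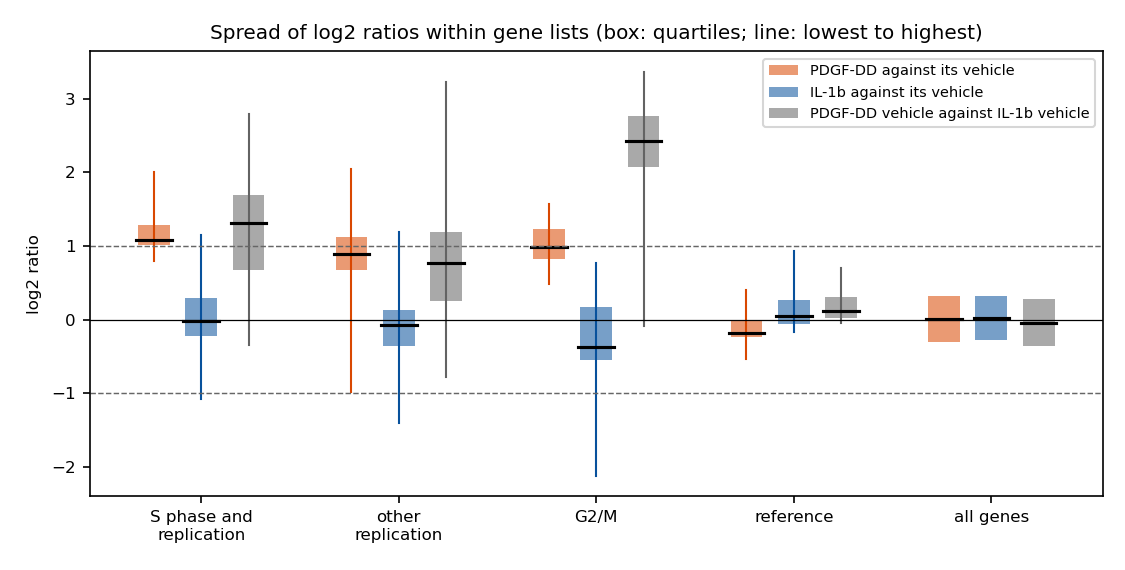
Log2 ratios (vertical axis) of gene lists in 3 comparisons; boxes span the quartiles, black bars are medians, thin lines run from the lowest to the highest gene (not drawn for all genes) and dashed lines mark 2-fold. The members' PDGF-DD box runs from 1.01 to 1.29, and the G2/M list has its highest median, 2.43, between the vehicles.

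Members with and without E2F-type letters in the windows shown earlier had overlapping values. With PDGF-DD the 15 genes with the letters had a median log2 ratio of 1.09 (0.85 to 2.0), and the 10 measured genes whose windows lack them had 1.04 (0.80 to 1.28). Lacking means here that none of the exact E2F-type words matched. Near matches were not counted, such as gttcccgc in Rrm1, so these windows may still hold E2F-type sites. Between the vehicles the medians were 1.25 and 1.21, and with IL-1b -0.12 and 0.05. Cdc45, whose window held 4 CCAAT matches, had the largest PDGF-DD ratio of the second group, 1.28. As that is the top of the group without the letters, members with a window above it can only be genes that hold them. These were Hells, Uhrf1, Cdt1, Mcm5, Mcm6 and Mcm3. The rest of the genes with the letters lay below 1.28, down to Slbp at 0.85. Ccne2, at 1.89, has no window. Fen1, Rfc4, Tk1, Chaf1b and Ccne1, with neither E2F-type nor CCAAT letters, had ratios from 0.94 to 1.20. The difference between these groups was not tested.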

How the data were processed

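What was deposited is 1 linear intensity for each probe set and array; per the submitters' processing notes MAS5 made it, and its version and scaling target are not given. All 4 deposited columns had a median intensity of 53.3. Each array was scaled to a common mean after trimming 2% at either end (factors 0.951 to 1.03), values under the 40th percentile of all values (28.1) were set to that floor, and log2 was taken. Of 31099 probe sets, 20832 had 1 gene symbol in an annotation of 2016, 436 several and 9831 none; all 37 used here matched a RefSeq symbol. A gene with several probe sets was read from the one whose mean log2 intensity was highest. A gene entered a comparison when above the floor on at least 1 of its arrays; 2-fold was a rule of size, with no test, since each group is 1 array, and a fold against the floor is a lower bound. Every measured member is named; of other replication genes, up to 4 per comparison with the largest absolute ratio, and Mki67 and Ccnd1. Members and lists were chosen with earlier results of these data known. Steps were tested on simulated data (Python 3.11.15, pandas 2.3.3). Protein sequences were not analysed here. Alternatives were the floor at the 20th or 60th percentile, no floor with a pseudocount of 32, the values as deposited, quantile normalization, the lowest or all probe sets of a gene, and scaling to spiked controls.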

Additional observations from a re-analysis of the deposited data

Results flagged for a closer look

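E2f1 was the one member at least 2-fold apart in opposite directions with the factors: against their own vehicles, PDGF-DD had a log2 ratio of 1.23 and IL-1b one of -1.07, which differ by 2.30. With 1 array per group this difference was not tested. Against the other vehicle the ratios were 0.88 with PDGF-DD and -0.72 with IL-1b, both of the same sign as before and below 2-fold. Its vehicle arrays had intensities of 119 (PDGF-DD) and 151 (IL-1b).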

How the results depend on the processing

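With 1 array per group no spread between samples is known. Counts within 1.5 times and log2 values within 0.58 of the main setting were taken as unmoved. Over 8 alternatives, 136 of 144 summary values and 638 of 651 single gene values were unmoved. Of these alternatives 7 were planned, and the scaling to spiked BioB, BioD and Cre controls was chosen after seeing the data. Many single gene values could not move, so these counts do not measure robustness. The lower alternative floor lay below every member's intensity. The choice of probe set cannot change the 23 members with 1 probe set. The values as deposited and the spiked control scaling shift all members of a comparison by a common amount, here below 0.58. Of the single gene values that moved, most were folds between the vehicles. The floor at the 60th percentile leaves 16 to 28 members measured. IL-1b against its vehicle then had 0 members higher and 0 lower, where 4.94% and 4.61% of all genes were. The vehicle comparison had 9 higher (4.31% of all genes), and IL-1b against the PDGF-DD vehicle 10 lower (3.72% of all genes). PDGF-DD against the IL-1b vehicle had a median log2 ratio of 1.75. With a pseudocount of 32 and no floor, 13 members were at least 2-fold higher with PDGF-DD (1.98% of all genes). With IL-1b 0 members were higher and 0 lower, where 3.69% and 3.15% of all genes were. With the lowest probe set of each gene, the PDGF-DD ratio of Ccne2 turned from 1.89 to -0.052. Scaling to spiked controls moved the median of all genes by 0.40 for PDGF-DD against its vehicle and by -0.11 between the vehicles, made 28 of 28 members at least 2-fold higher with PDGF-DD (median 1.5), and gave 12.2% of all genes higher and 2.39% lower there. No paired analysis was possible because each group holds 1 array. The number of arrays limits all values, and intensities near the floor, such as those of Ccne1, limit single folds.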
